A study of Mus musculus with 2 samples.

Results

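The metallothioneins Mt1 and Mt2, the ferritin subunits Fth1 and Ftl1, the transferrin receptor Tfrc and haem oxygenase Hmox1 were followed in ovary sections of a young and an old mouse. These 6 genes were chosen by name, with earlier results of these data known, out of 22204 gene names listed in either section. Tfrc and Hmox1 store no iron themselves, but bring iron into the cell and free it from haem. The measurements came from Slide-seq, in which beads of known position, each with its own barcode, catch RNA from the tissue lying on them, so that a bead reports the few cells above it. The young section came from a C57BL6/J female of 2 months and the old section from a C57BL6/J female of about 14 months, both of whole ovary, with no treatment named in the labels. Per the labels' protocols, sections were picked for several oocytes in 1 plane and each age had 2 females. Here 1 section per age was analysed.

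Metallothioneins are small cysteine-rich proteins that bind zinc and copper, and their transcription is known to be raised by zinc, through the factor MTF-1, by glucocorticoids and by oxidative stress. Ferritin is a hollow shell of heavy (Fth1) and light (Ftl1) chains that keeps iron in a safe form. The transferrin receptor takes up iron carried by transferrin, and haem oxygenase opens the haem ring and releases its iron, a task for which macrophages that clear red blood cells are known. In the ovary, follicles that ovulate turn into corpora lutea, which make progesterone from cholesterol and are later cleared with the help of macrophages.

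The young section held 5158314 counts on 21403 beads (median 153 counts per bead) and the old section 2348768 counts on 10267 beads (median 125), and no bead barcode was shared. Levels are given as CPM, the counts of a gene per 1000000 counts of the section. Each age was a single library, so that age cannot be told apart from the animal, the plane of the section or the library. No test of age was made, and each 95% interval in brackets covers counting error only. A level in a section also cannot tell fewer cells of a type from less RNA per cell. Ovarian marker genes were present: 16 of 17 listed oocyte genes were detected when young and 15 when old, and all 12 granulosa, 7 luteal and 13 macrophage genes in both. The makeup of the sections differed, with the oocyte list at 3203 CPM in the young section against 295 CPM, and the periovulatory list (genes such as Adamts1 and Ptgs2 that follicles switch on around ovulation) at 30.0 against 1631 CPM. The part of this difference in the results below was not tested.

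Both metallothioneins were higher in the old section. Mt1 stood at 433 CPM (415 to 451) when young and 1157 CPM (1114 to 1202) when old, an old/young ratio of 2.67 (2.53 to 2.83). Mt2 stood at 165 CPM (154 to 176) and 769.8 CPM (735 to 806), a ratio of 4.67 (4.30 to 5.07). When every part of a section was given the same weight, whatever its depth, the Mt2 ratio was 3.11. The pair also differed in proportion, with 0.381 Mt2 counts read per Mt1 count (0.352 to 0.413) in the young section against 0.665 (0.626 to 0.706). More beads held the genes: a count of Mt1 was found on 8.82% of young and 16.3% of old beads, and of Mt2 on 3.58% and 11.6%. The other family members were scarce, with 68 young and 29 old counts of Mt3, the brain metallothionein, and 2 and 0 counts of Mt4, that of squamous epithelium.

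The iron genes did not move together. Fth1, the heavy chain that oxidises iron as it enters the shell, stood at 1742 CPM (1706 to 1779) when young and 3516 CPM (3440 to 3593) when old, a ratio of 2.02 (1.96 to 2.08). Ftl1, the light chain that helps to form the iron core, was lower when old, at 1239 CPM (1195 to 1285) against 1707 CPM (1672 to 1743), a ratio of 0.726 (0.696 to 0.757). The balance of the chains differed accordingly: 1.02 Fth1 counts were read per Ftl1 count (0.991 to 1.05) in the young section against 2.84 (2.72 to 2.96). Tfrc was scarce, with 81 young and 95 old counts, or 15.7 CPM (12.5 to 19.5) and 40.4 CPM (32.7 to 49.4), a ratio of 2.58 (1.89 to 3.51). Hmox1 was as scarce, with 65 and 97 counts, or 12.6 CPM (9.73 to 16.1) and 41.3 CPM (33.5 to 50.4), a ratio of 3.28 (2.37 to 4.56). For both of these genes the intervals are wide, and statements on their place in the tissue rest on few counts.

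Of the 6 genes, 5 were at least 1.5-fold higher in the old section and none was lower by that size. Over all 12586 genes with at least 20 counts in 1 section, 22.6% were higher and 25.4% lower by that size, and the median ratio was 0.988 against 2.63 for the 6 genes. Ranked from the highest ratio, Mt2 came at place 222, Hmox1 at 435, Mt1 at 694, Tfrc at 752, Fth1 at 1338 and Ftl1 at 8843. Because the genes were chosen with earlier results of these data known, this comparison is a description and no test.

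To see how evenly each level held across the tissue, each section was split into 4 quadrants at the median bead position. Quadrants of the young section ran from 330 to 549 CPM for Mt1 (median 481) and those of the old from 519 to 1589 CPM (median 1120). These ranges overlapped, because the old quadrant of low x and high y stood at 519 CPM. Mt2 ran from 127 to 245 CPM (median 164) and from 306 to 1148 CPM (median 680.2), with its lowest value in the same old quadrant. Fth1 was more even between quadrants, from 1628 to 2058 CPM (median 1689) when young and from 3314 to 4092 CPM (median 3456) when old. Quadrants average over smaller patches, and over the regions described below old Fth1 ran from 1475 to 8916 CPM. Ftl1 ran from 1585 to 1876 CPM (median 1705) and from 1146 to 1347 CPM (median 1240). Neither ferritin chain nor Mt2 had quadrants that overlapped between the sections. The share of all genes without such overlap was not computed, so nothing particular to these genes can be read from it. Tfrc ran from 11.8 to 20.1 CPM when young and from 31.0 to 63.6 CPM when old, and its highest old quadrant was the one where the metallothioneins were lowest. Hmox1 ran from 8.69 to 23.6 and from 24.1 to 58.7 CPM, nearly touching. Quadrants are parts of 1 section and no replicates.

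**Figure D1:**
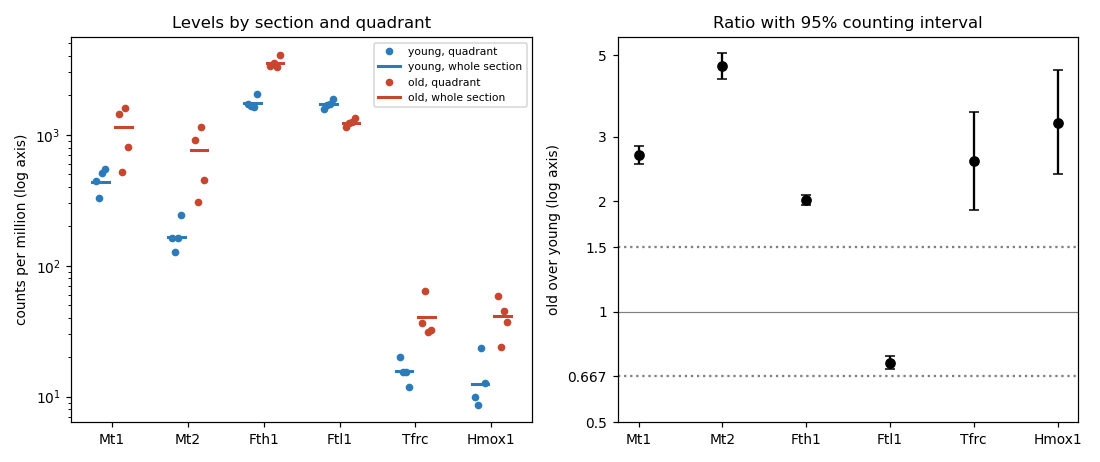
Levels of the 6 genes in CPM (left, log axis) for each quadrant (points) and for the whole section (bars), and the old/young ratio with its 95% counting interval (right, log axis, dotted lines at 1.5-fold). Young and old quadrants of Mt1 overlap, and Ftl1 is the gene with a ratio below 1, at 0.726.

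Because Mt1 and Mt2 are neighbours on chromosome 8 and were high or low in the same places, their regulatory sequence is shown. In RefSeq (GRCm38.p6) Mt2 spans chr8:94172618-94173567 and Mt1 chr8:94178883-94180327, both on the forward strand. The metal response element, to which MTF-1 binds, was searched as its core TGCACNC or TGCGCNC on both strands in RefSeq promoter windows, 250 bases before and 50 after a listed start site, which 5 of the 6 genes had. The 250 bases before the start site of Mt2, chr8:94172368-94172617, held 3 cores, set in capitals:
Mt2 upstream: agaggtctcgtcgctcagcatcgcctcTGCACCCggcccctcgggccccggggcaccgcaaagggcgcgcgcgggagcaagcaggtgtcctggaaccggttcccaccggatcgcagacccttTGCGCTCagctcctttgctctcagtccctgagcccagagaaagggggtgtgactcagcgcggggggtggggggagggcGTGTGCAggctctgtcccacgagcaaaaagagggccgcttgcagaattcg
The window of Mt1, chr8:94178839-94179138, is set on a start site inside the annotated gene span. Its 3 cores therefore lie within that span and not before it, 1 of them before the window's start site and 2 after it, and each is shown in capitals with 7 bases on either side. The last line is the remaining core of the Mt2 window, which lies just after its start site and is read on the opposite strand:
Mt1 core at chr8:94179059-94179079: cccgctgTGCACACtggcgct
Mt1 core at chr8:94179084-94179104: ggagctcTGCACTCcgcccga
Mt1 core at chr8:94179102-94179122: cgaaaagTGCGCTCggctctg
Mt2 core at chr8:94172615-94172635: tcgggtcGTGCGCAggcccag
A core was found in 25.7% of 32851 windows of 300 bases, and 3 or more in 1.97%. The windows of Fth1 and Ftl1 held none, and 1 of the 2 windows of Tfrc held 2. A match is a run of letters and not a measured binding site.

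Where in the ovary each gene lay was read from a grid of square bins, each 5 bead spacings wide. A bin needed 500 counts, which left 1338 young and 895 old bins. Bins were sorted by depth from the tissue edge into an outer, a middle and an inner zone. The metallothioneins were lower outside than inside when young and higher outside when old. Young Mt1 stood at 423 CPM in the outer, 342 in the middle and 539 in the inner zone, an outer/inner ratio of 0.786 (0.707 to 0.873), and young Mt2 at 167, 107 and 235 CPM, a ratio of 0.711 (0.602 to 0.838). Old Mt1 went from 1570.0 through 1133 to 755 CPM inward, a ratio of 2.08 (1.88 to 2.30), and old Mt2 from 1139 through 696 to 473 CPM, a ratio of 2.41 (2.13 to 2.73). The young difference was the smaller one, and with bins of 8 spacings the Mt1 ratio was 0.918. Fth1 ran opposite to them when old, at 3023 CPM in the outer and 4461 CPM in the inner zone, a ratio of 0.678 (0.642 to 0.715), and was nearly level when young, at 1713 and 1897 CPM. Ftl1 was level across the old section, at 1282 and 1247 CPM, and lower outside than inside when young, at 1689 and 2048 CPM. Both ferritin chains were lowest in the middle zone when young, Ftl1 at 1432 CPM and Fth1 at 1614 CPM. Tfrc and Hmox1 had too few counts for a direction, with each interval spanning 1.

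Other tissue moved with depth as well. In the old section the surface epithelium list, of the cells that cover the ovary, stood at 1015 CPM in the outer and 155 in the inner zone, the periovulatory list at 1888 and 696 CPM, and the macrophage list at 499 and 997 CPM. In the young one the steroidogenic list (Star, Cyp11a1, Hsd3b1, Fdxr and Fdx1, the cholesterol-to-steroid machinery) stood at 14198 CPM outside and 25856 CPM inside. The part of these tissues in the depth pattern was not tested.

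**Figure D2:**
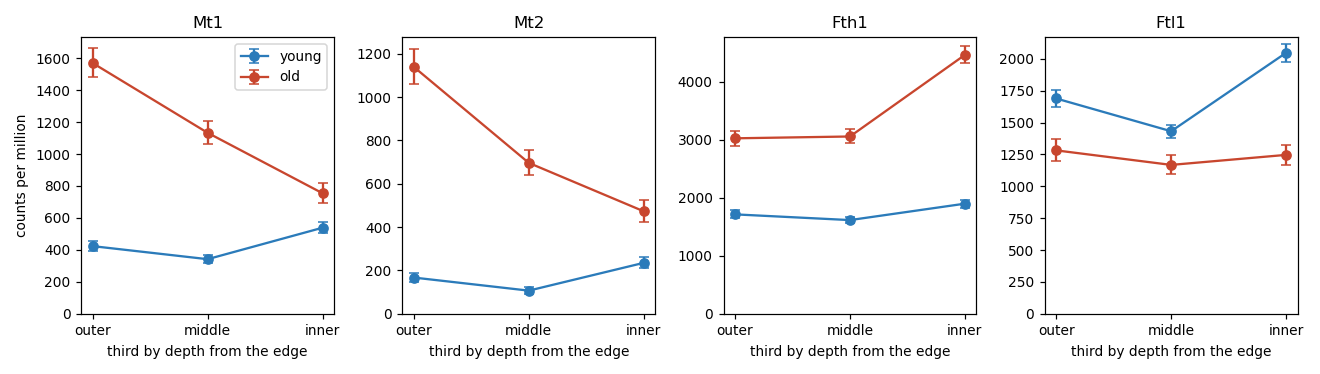
CPM of Mt1, Mt2, Fth1 and Ftl1 in the outer, middle and inner zone of depth from the tissue edge, for both sections, with 95% counting intervals. Old Mt1 falls from 1570.0 to 755 CPM toward the inside while old Fth1 climbs from 3023 to 4461 CPM.

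Bins were then ranked by the share of counts that a marker list took. The fifth of bins with the highest share, or all bins with a count where these were fewer, was compared with all other bins of that section. In the young section the metallothioneins were highest in bins rich in interstitial and steroid-forming genes. In interstitial bins, ranked by the single gene Aldh1a1, Mt1 stood at 865 CPM against 346 elsewhere, a ratio of 2.50 (2.28 to 2.74), and Mt2 at 363 against 127 CPM, a ratio of 2.85 (2.47 to 3.30). In steroidogenic bins, of which 72.8% were also interstitial bins, the ratios were 2.36 (2.15 to 2.58) and 2.73 (2.36 to 3.16). Both metallothioneins but neither ferritin chain were at least 1.5-fold higher there, as were 7.18% of 7990 genes with at least 100 counts. Young luteal bins had ratios of 0.833 (0.739 to 0.936) and 0.828 (0.680 to 1.00), and the highest 10% of bins 0.658 and 0.580. Bins rich in blood endothelium genes, of which 34.3% were interstitial bins too, had ratios of 1.56 (1.40 to 1.73) for Mt1 and 1.89 (1.60 to 2.21) for Mt2. With bins of 3 spacings these ratios were 1.02 and 1.40.

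Bins rich in granulosa genes, which mark growing follicles, were poor in metallothionein when young. Mt1 stood there at 245 CPM against 499.7 elsewhere, a ratio of 0.491 (0.437 to 0.550), and Mt2 at 45.8 against 212 CPM, a ratio of 0.216 (0.166 to 0.278). Ftl1 was low too, at 1023 against 1971 CPM, a ratio of 0.519 (0.490 to 0.549), while Fth1 had a ratio of 0.757 (0.720 to 0.795). Thus 3 of these 4 genes were at least 1.5-fold lower in granulosa bins, as were 16.6% of 7990 genes. Mt2 counts per Mt1 count were 0.187 (0.142 to 0.243) in granulosa bins against 0.425 (0.368 to 0.490) in steroidogenic bins. Granulosa bins were deeper than the rest, at a median of 5289 against 2814 counts. Hmox1 had 9 counts in them and a ratio of 0.399 (0.173 to 0.812).

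Bins rich in oocyte genes, with at least 10 counts of the oocyte list that filled at least 1% of the bin, were low as well. In the 58 such bins of the young section Mt1 stood at 161 CPM (84 counts), Mt2 at 40.4 CPM (21 counts), Fth1 at 878 CPM (799 to 962) and Ftl1 at 475 CPM (417 to 538). Beyond 20 bead spacings from any of them the levels were 498 CPM for Mt1 (470.3 to 528), 206 CPM for Mt2 (188 to 225), 1831 CPM for Fth1 and 1965 CPM for Ftl1. With a stricter choice of at least 20 oocyte counts and 2%, the ratio to distant bins moved from 0.324 to 0.213 for Mt1 and from 0.196 to 0.104 for Mt2. The old section had 5 oocyte-rich bins, with 11 counts of Mt1 and 1 of Mt2, too few to compare.

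The old section had its highest metallothionein levels in periovulatory and surface epithelium bins. In periovulatory bins Mt1 stood at 1844 CPM against 794 in other bins, a ratio of 2.32 (2.15 to 2.51), and Mt2 at 1267 against 506 CPM, a ratio of 2.50 (2.27 to 2.75). Both of them and neither ferritin chain were at least 1.5-fold higher there, as were 13.5% of 5089 genes. These bins were deeper than the others, at a median of 4004 against 1878 counts. Bins rich in surface epithelium genes had Mt1 at 1645 against 1068 CPM, a ratio of 1.54 (1.39 to 1.70), and Mt2 at 1058 against 715 CPM, a ratio of 1.48 (1.31 to 1.67). The order of these lists depended on the choice of bins: in the highest 10% the surface epithelium ratios were 2.04 and 2.07, and the periovulatory ones 1.86 and 1.76. With bins of 3 spacings the surface epithelium ratio of Mt1 was 1.25. Interstitial bins, where the young levels were high, still had more Mt1 when old, at 1463 against 1098 CPM, a ratio of 1.33 (1.20 to 1.48), while the Mt2 ratio was 1.12 (0.974 to 1.28). When young, the 261 bins with any surface epithelium count had ratios of 0.937 for Mt1 and 1.00 for Mt2, but in the highest 10% of bins the ratios were 1.67 and 2.22.

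Luteal bins of the old section were the ones lowest in metallothionein. Mt1 stood there at 252 CPM against 1360 elsewhere, a ratio of 0.185 (0.152 to 0.224), and Mt2 at 127 against 913 CPM, a ratio of 0.139 (0.105 to 0.181). Both were at least 1.5-fold lower and neither ferritin chain was, against 19.1% of 5089 genes. In steroidogenic bins, which held 60.9% of the luteal bins, the ratios were 0.343 (0.295 to 0.396) and 0.299 (0.246 to 0.361). In the highest 10% of bins these were 0.151 and 0.124, and the luteal Mt1 ratio was 0.121. The steroidogenic ratios of the sections thus lay on opposite sides of 1 for both genes, a difference that was not tested.

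Set side by side, bins of the same list gave very different old/young ratios. In luteal bins Mt1 had a ratio of 0.688 (0.551 to 0.855) and Mt2 of 0.908 (0.652 to 1.25). In steroidogenic bins the ratios were 0.541 (0.459 to 0.634) and 0.743 (0.593 to 0.926), against 3.71 and 6.79 in all other bins. In granulosa bins they were 4.84 (4.26 to 5.49) and 18.7 (14.5 to 24.5). In steroidogenic bins both genes were therefore lower when old, opposite to the whole section. In interstitial bins both genes were higher when old, at 1.69 (1.49 to 1.91) and 2.31 (1.94 to 2.75). Bins of a list need not hold the same tissue in both sections. Of steroidogenic bins, 72.8% of the young and 26.3% of the old were also interstitial bins, and 16.4% and 60.9% luteal bins. Granulosa genes made up 27445 CPM of the young and 5086 CPM of the old granulosa bins, and 42.5% of the old ones were also periovulatory bins.

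**Figure D3:**
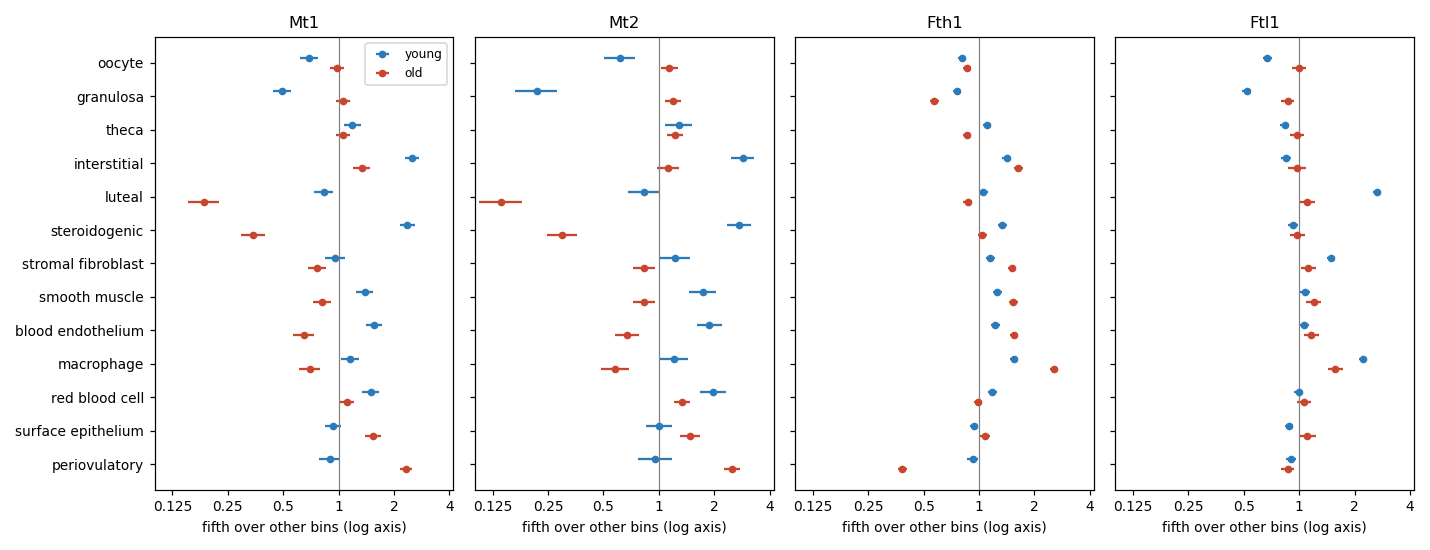
Ratio of the level in the fifth of bins highest in each marker list to the level in all other bins (log axis), for Mt1, Mt2, Fth1 and Ftl1 in both sections, with 95% counting intervals. In the steroidogenic row the young metallothionein ratios are 2.36 and 2.73 and the old ones 0.343 and 0.299. The points also lie far apart in the luteal row and, for Mt2, in the granulosa row, at 0.216 when young and 1.19 when old.

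Fth1 followed macrophage genes in both sections. In macrophage bins, ranked by a list that includes Fcer1g, Mertk and Aif1, it stood at 2461 against 1593 CPM when young, a ratio of 1.55 (1.47 to 1.62). When old it stood at 7430 against 2915 CPM, a ratio of 2.55 (2.43 to 2.68). Interstitial, blood endothelium, smooth muscle and stromal fibroblast bins of the old section were also richer in Fth1, at ratios of 1.63, 1.55, 1.54 and 1.52, each of which was under 1.5 with at least 1 other choice of bins. These bins overlap, and 30.7% of the endothelium bins were macrophage bins. Periovulatory bins of the old section were poor in Fth1, at 1695 against 4423 CPM, a ratio of 0.383 (0.361 to 0.407). The old/young ratio there was 1.05 (0.969 to 1.14), against 2.53 (2.45 to 2.61) in all other bins. The young periovulatory list had only 153 counts, and its 133 bins were all those with any of them. The list made up 226 CPM of these young bins and 4508 CPM of the old ones, so this ratio need not compare like tissue. The correlation of Fth1 over old bins was weak, at -0.118 with Mt1 and -0.116 with Mt2. Low Fth1 went with high metallothionein in periovulatory bins, but interstitial bins were higher in both Fth1 and Mt1.

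Ftl1 was high in luteal and macrophage bins of the young section. In luteal bins it stood at 3473 against 1314 CPM, a ratio of 2.64 (2.53 to 2.76), and in macrophage bins at 3161 against 1422 CPM, a ratio of 2.22 (2.12 to 2.33). The choices overlapped, with 39.2% of luteal bins among the macrophage bins. Of the 4 abundant genes, Ftl1 was the 1 that was at least 1.5-fold higher in young luteal bins, as were 8.99% of 7990 genes. When old, the luteal ratio was 1.11 (1.01 to 1.21), at 1332 against 1204 CPM, and the macrophage ratio 1.57 (1.43 to 1.73). In old macrophage bins both ferritin chains and neither metallothionein were at least 1.5-fold higher, as were 7.53% of 5089 genes, but the Ftl1 ratio was 1.49 with bins of 3 and 1.41 with bins of 8 spacings. The old/young ratio of Ftl1 was 0.383 (0.351 to 0.419) in luteal bins and 0.916 (0.872 to 0.963) in all others. In bins of the other lists it ran from 0.568 (stromal fibroblast and macrophage) to 1.08 (granulosa). Of the old luteal bins 11.7% were macrophage bins, against 39.2% of the young ones, so the luteal ratio need not compare like tissue. Fth1 counts per Ftl1 count were 0.521 (0.491 to 0.554) in young and 2.35 (2.14 to 2.59) in old luteal bins.

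Tfrc was higher in steroid-forming bins of the old section. Its 35 counts in steroidogenic bins gave 78.7 CPM, against 31.9 CPM elsewhere, a ratio of 2.47 (1.58 to 3.81), and luteal bins gave 2.44 (1.56 to 3.77). When young those ratios were 0.866 (0.413 to 1.65) and 0.965 (0.501 to 1.73), on 11 and 14 counts, and both intervals span 1. Young smooth muscle bins had 4 counts and a Tfrc ratio of 0.328 (0.0870 to 0.873). Hmox1 was read more often in macrophage bins, at 23.4 against 10.7 CPM when young, a ratio of 2.18 (1.21 to 3.80), and at 68.9 against 37.7 CPM when old, a ratio of 1.83 (1.07 to 3.00). These are 19 and 21 counts. Old interstitial and smooth muscle bins had similar Hmox1 ratios, at 1.82 (1.05 to 3.01) and 1.72 (1.04 to 2.77), on 20 and 24 counts. The old ratio was thus not particular to macrophage bins. A ratio of 2.14 (1.32 to 3.38) for Hmox1 in old endothelium bins was not kept with other bins, at 0.891 with bins of 3 and 0.959 with bins of 8 spacings.

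**Figure D4:**
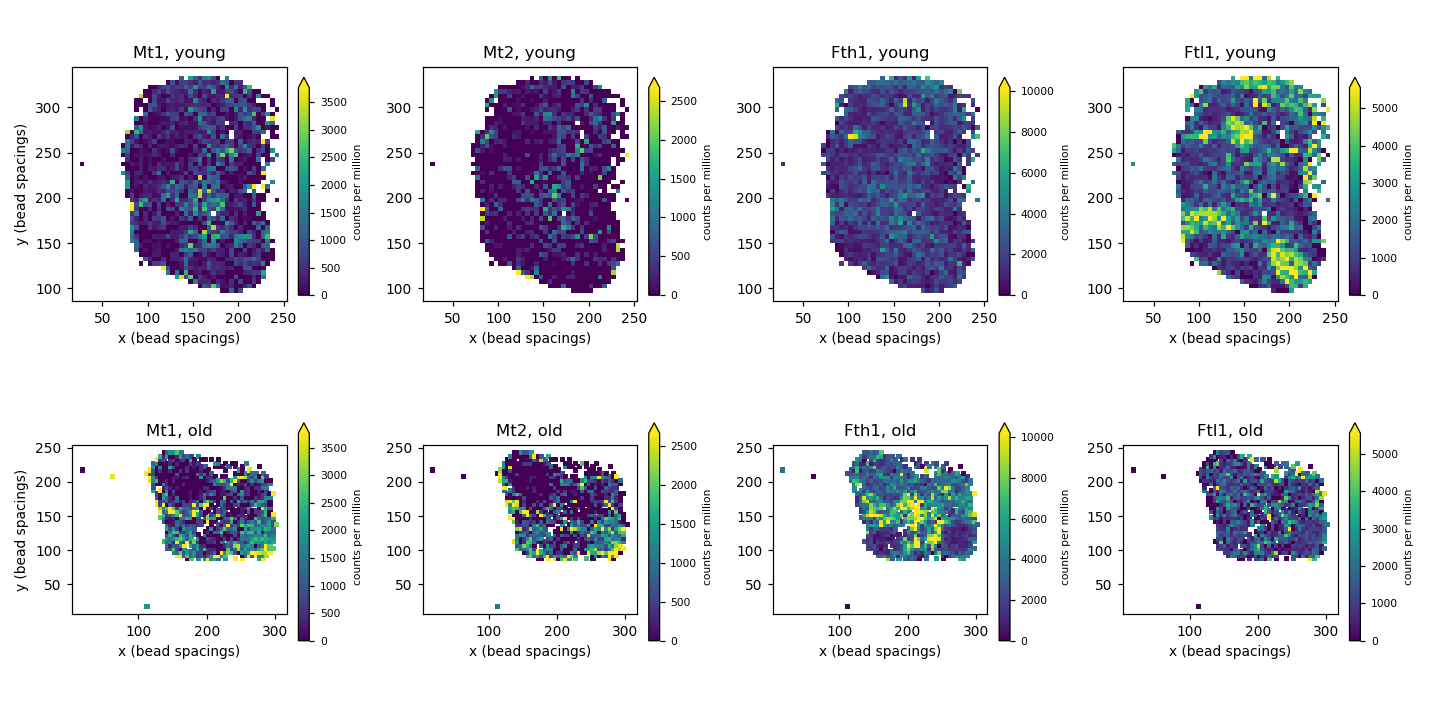
Maps of Mt1, Mt2, Fth1 and Ftl1 in CPM per bin, with axes in bead spacings and the same colour scale for a gene in both sections; bins above its top share the brightest colour. Young Ftl1 fills separate patches, and in the old section the metallothioneins leave a dark area at low x and high y while Fth1 fills the centre.

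The patchiness of each gene was described by Moran's I, a measure of how alike adjoining bins are, after each bin was thinned to 500 counts. Ftl1 was among the patchier genes when young, at 0.190 and place 42 of 2298 genes with at least 500 counts, and stood at 0.00959 and place 493 of 825 when old. Fth1 had 0.0907 (place 121) when young and 0.292 (place 16) when old. Mt1 had 0.0735 and 0.140, and Mt2 0.0544 and 0.157. The median over all these genes was 0.00968 when young and 0.0159 when old. With bins thinned to 1000 counts, old Ftl1 reached 0.0841. The order of Fth1 and Ftl1 in patchiness thus turned between the sections.

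High bins were also read in beads that had not chosen them: each bin's beads were split at random, 1 share ranked the bins and the other gave the level. The 10% of bins highest in Mt1 held 2.29 times the Mt1 level of the rest when young (1.91 to 2.74) and 2.10 times when old (1.82 to 2.43). For Mt2 these ratios were 2.68 (2.08 to 3.44) and 2.24 (1.88 to 2.66), for Fth1 1.74 (1.58 to 1.90) and 2.63 (2.41 to 2.86), and for Ftl1 2.66 (2.46 to 2.86) and 1.40 (1.17 to 1.67). So all 4 genes had places that stayed high in beads not used to find them. Bins high in Mt1 were also high in Mt2, at ratios of 3.04 (2.34 to 3.89) when young and 2.08 (1.74 to 2.48) when old. Bins high in Fth1 held 3.39 times the macrophage list when young and 3.74 times when old, and bins high in Ftl1 4.23 and 2.77 times. The ratios of Tfrc and Hmox1 had intervals that spanned 1.

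Grouping bins by genes other than these 6 and the pathway lists gave 11 young and 10 old regions, named here by their leading genes. Young Mt1 and Mt2 were highest in the region led by Adh1 and Mme, at 1053 and 415 CPM, and lowest in that led by Cyp19a1 and Inhba, at 136 and 17.9 CPM. Young Fth1 was highest in the region led by Atp6v0d2, Ctss and Cd74, at 3054 CPM. Young Ftl1 was highest in the region led by Sema3d, Onecut2 and Sfrp4, at 3926 CPM. Each of these pairs and genes peaked in a different region. Young Tfrc was highest, at 35.8 CPM on 30 counts, in the region led by Apoa4 and Col9a2, where the granulosa list filled 11339 CPM.

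The old metallothioneins were high in more than 1 region. Mt1 reached 1942 CPM and Mt2 1285 CPM in the region led by Lgals7, Ly6e and Crip1, where the surface epithelium list filled 3284 CPM. In the region led by Prkg2, Adamts1 and Bves, where the periovulatory list filled 4764 CPM, they stood at 1851 and 1325 CPM. Both were lowest in the region led by Hsd17b7 and Bace2, with 13337 CPM of the luteal list, at 143 and 57.9 CPM. That same region had the highest old Tfrc level, at 101 CPM on 33 counts. Old Fth1 peaked at 8916 CPM in the region led by Gpnmb, Ctss and Lyz2, as did Ftl1, at 1971 CPM, and Hmox1, at 102 CPM on 19 counts. Fth1 was lowest in the Prkg2 region, at 1475 CPM. The region led by Agt and Adh1 had Fth1 at 5438 CPM, above its section level. Mt1 stood there at 1189 CPM (1049 to 1342) and Mt2 at 683 CPM (578 to 802), intervals that hold their section levels.

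The genes most like each of the 6 were found by Pearson correlation, over 1338 young and 895 old bins, of the log of counts per 10000 plus 1. For young Mt1 these were Aldh1a1 (0.296), Adh1 (0.290) and Mgarp (0.251), and for young Mt2 Aldh1a1 (0.318), Gas6 (0.270) and Mgarp (0.264). For young Fth1 they were Apoe (0.251), Dcn (0.241) and Tmsb4x (0.236), and for young Ftl1 Sfrp4 (0.482), Lgals3 (0.480) and Sgk1 (0.444). The old partners were others, except for Apoe with Fth1 and Sgk1 with Ftl1 (0.164 when old). They were drawn from 785 genes with enough counts, against 2245 when young. They were Cnn3 (0.331), Rbbp7 (0.296) and Adamts1 (0.290) for Mt1, and Smarca1 (0.344), Rhox8 (0.340) and Ldha (0.340) for Mt2. Old Fth1 was most like Ctss (0.409), Apoe (0.351) and Gas6 (0.291), and old Tfrc most like Lhcgr (0.170), the receptor for luteinising hormone. No gene exceeded 0.170 for old Ftl1, 0.124 for old Hmox1, 0.134 for young Tfrc or 0.101 for young Hmox1. Mt1 and Mt2 correlated with each other at 0.278 when young and 0.464 when old. Bins share their library and differ in depth, and thinned to 500 counts Ftl1 and Sfrp4 correlated at 0.284, Fth1 and Ctss at 0.220, and Mt1 and Aldh1a1 at 0.170. So thinned, Mt1 and Mt2 kept 2 of their 3 young and 1 of their 3 old partners each. Fth1 kept 2 in either section, Ftl1 2 and 0, and Tfrc and Hmox1 none. With square roots in place of logs, old Ftl1 also kept 0 of its 3 partners, Sgk1 among those lost. All other sets of partners kept 2 or 3. Thinning also leaves fewer counts per bin, and why partners were lost was not tested.

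The wider pathways were read from lists of known genes. Iron genes had no common direction. Of 24 measured genes of iron transport, sensing and use, 9 were at least 1.5-fold higher and 9 lower in the old section. Over all genes the shares were 22.6% and 25.4%. The median ratio of the iron genes was 1.15. Trf, the iron carrier that Tfrc binds, stood at 41.5 CPM when young and 320.2 CPM when old, a ratio of 7.72 (6.62 to 9.03). Steap1, of a family of metal reductases, had a ratio of 12.1 (4.10 to 48.2) on 4 and 22 counts, and Slc39a14, an importer of zinc and iron, of 4.17 (2.64 to 6.73). The lowest were Bmp6, a signal that raises the iron hormone hepcidin, at 0.142 (0.0828 to 0.228), the importer Slc39a8 at 0.258 (0.0906 to 0.602) and the iron-binding protein Ltf at 0.305 (0.0934 to 0.780). Nfs1, which supplies sulfur for iron-sulfur clusters, had a ratio of 0.492 (0.438 to 0.552) and the iron chaperone Pcbp2 of 0.933 (0.843 to 1.03).

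Of 16 measured haem genes, 2 were higher and 1 lower, against 22.6% and 25.4% of all genes, with a median ratio of 1.08. With a minimum of 50 counts 1 was higher. Hp, which binds free haemoglobin, had a ratio of 6.35 (2.88 to 15.4) on 9 and 26 counts, and Ppox, of haem synthesis, of 2.44 (1.90 to 3.14). The synthesis enzymes Alas2 and Alas1 had ratios of 1.43 (0.695 to 2.87) and 1.33 (1.17 to 1.50), and Cpox of 0.564 (0.413 to 0.760). The porphyrin transporter Abcb6 had 0.689 (0.367 to 1.23), biliverdin reductase Blvra, the step after haem oxygenase, 0.707 (0.526 to 0.939), and the haemopexin receptor Lrp1 0.737 (0.648 to 0.838).

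Of 21 measured zinc and copper genes, 5 were higher and 5 lower, near the 22.6% and 25.4% of all genes. The median ratio was 1.17. The zinc importers Slc39a1, Slc39a13 and Slc39a10 had ratios of 3.13 (2.51 to 3.92), 2.20 (1.52 to 3.18) and 1.67 (1.37 to 2.03), and Slc30a5, which loads zinc into the secretory pathway, of 1.65 (1.46 to 1.86). Slc30a3, a vesicle zinc transporter, had 54 counts when young and was listed at 0 when old, at least 8.20-fold lower against a floor of 3 counts in that library. The zinc exporter Slc30a2 had a ratio of 0.252 (0.134 to 0.439), the importer Slc39a6 of 0.520 (0.416 to 0.646) and the copper chaperone Atox1 of 0.611 (0.531 to 0.701).

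The list for Nrf2, the oxidative stress factor known to drive Hmox1 and the ferritins too, was split. Beside targets it held Nfe2l2, the gene of Nrf2 itself, at a ratio of 1.57 (1.31 to 1.87), and its regulators Keap1 and Bach1. Of 13 measured genes 5 were higher and 2 lower (1 with a minimum of 50 counts), with a median ratio of 1.25. Over all genes 22.6% were higher and 25.4% lower. The cystine importer Slc7a11 had a ratio of 3.96 (3.01 to 5.26), sulfiredoxin Srxn1 of 3.29 (2.60 to 4.19) and Osgin1 of 3.03 (2.00 to 4.63). The quinone reductase Nqo1 had a ratio of 0.244 (0.0474 to 0.793) on 27 and 3 counts, G6pdx, the first enzyme of the pentose phosphate pathway, of 0.255 (0.197 to 0.326), and thioredoxin reductase Txnrd1 of 0.712 (0.613 to 0.825). The peroxidase Prdx1 had 0.734 (0.694 to 0.776) and Gclc, of glutathione synthesis, 1.31 (1.16 to 1.47).

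Genes of the glucocorticoid response had the highest median ratio of the 5 lists, at 2.80, with 6 of 8 genes higher and none lower. Ddit4, a brake on mTOR, stood at 48.7 CPM when young and 429 CPM when old, a ratio of 8.82 (7.67 to 10.2), and Fkbp5, a co-chaperone of the glucocorticoid receptor, at 222 and 1267 CPM, a ratio of 5.70 (5.32 to 6.11). The clock gene Per1 had a ratio of 3.55 (2.55 to 4.98), the kinase Sgk1 of 2.38 (2.26 to 2.50) and Tsc22d3 of 1.84 (1.47 to 2.30). The receptor itself, Nr3c1, had a ratio of 1.24 (0.942 to 1.64), and Klf9, another known target, of 0.685 (0.598 to 0.781). Each list is small, was chosen with earlier results of these data known, and was read against the 22.6% of all genes higher and 25.4% lower. The makeup of the sections differed, and whether any list is linked to the metallothionein levels was not tested.

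**Figure D5:**
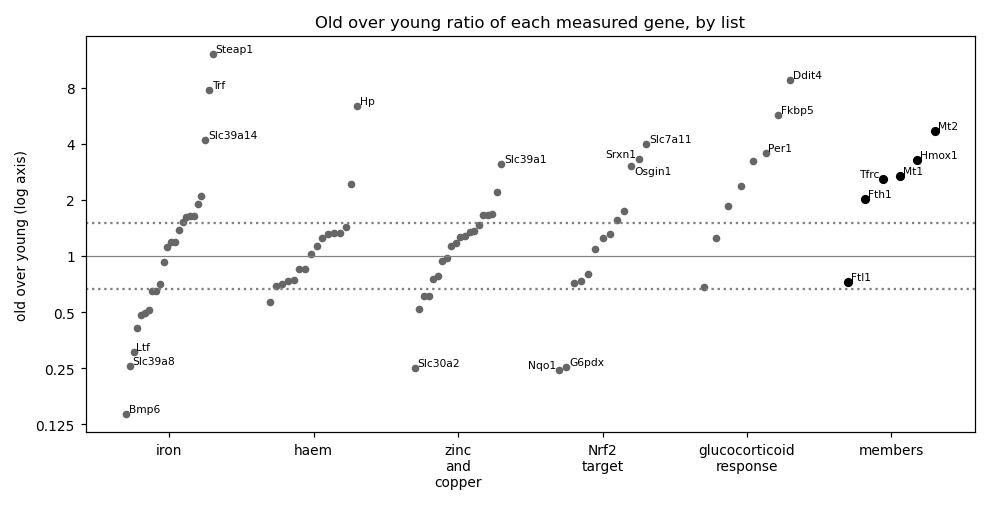
Old/young ratio (log axis, dotted lines at 1.5-fold) of each measured gene of the 5 pathway lists (grey) and of the 6 genes described here (black), ordered within a list. Slc30a3, listed at 0 in the old section, is not drawn. The iron list spreads from 0.142 to 12.1 on both sides of 1, and 6 of the 8 glucocorticoid genes lie above the upper dotted line.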

How the data were processed

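The deposited tables give, for every gene and bead, a whole number of counts, beside the position of the bead. Per the labels' protocols they come from Slide-seq, and per the submitters' processing notes the build was mm10. No source used here gives the aligner, or says if a count is a molecule or a read. A gene's counts were added up over a section's beads and scaled to the section total. Levels carry exact Poisson and ratios exact conditional binomial (Clopper-Pearson) 95% intervals. Bin ratios of all genes used genes with at least 100 counts. Regions were Leiden clusters per section (2000 variable genes without the 6 genes and the pathway lists, 20 principal components, 15 neighbours, resolution 1.0; scanpy 1.11.5, python-igraph 0.11.9). Python 3.11.15, numpy 2.4.6, scipy 1.17.1 and pandas 2.3.3 were used, and the calculations were tested on simulated data. The genes and lists were chosen with earlier results of these data known. Named genes were the 6 genes; of each pathway list the 3 highest and 3 lowest ratios and the 2 most abundant among genes with at least 20 counts in 1 section; and for each of the 6 genes and section the 3 genes of at least 500 counts that correlated best over bins, without mitochondrial and ribosomal protein genes. Regions are named by leading genes. Alternatives were other bead and bin minimums, bin sizes, scalings, marker cutoffs, oocyte-rich bins, thinning depths and resolutions, and leaving out each quadrant.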

Additional observations from a re-analysis of the deposited data

Results flagged for a closer look

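The same contrast ran at least 1.5-fold in opposite directions in the sections for these results. Each rests on 1 section per age, and the difference between sections was not tested. The ratio of steroidogenic bins to other bins was 2.36 when young and 0.343 when old for Mt1, and 2.73 and 0.299 for Mt2. The ratio of blood endothelium bins to other bins was 1.56 when young and 0.645 when old for Mt1, where with bins of 3 spacings the values were 1.02 and 0.772. The old/young ratio of Mt1 was 0.541 in steroidogenic bins and 3.71 in all other bins, so that the section ratio above 1 did not hold in the bins richest in steroid-forming genes. These bins need not hold the same tissue, as 72.8% of the young and 26.3% of the old ones were also interstitial bins. In interstitial bins the Mt1 ratio was 1.69.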

How the results depend on the processing

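Old/young ratios kept their side of 1 under all alternatives run, and 5 genes stayed at least 1.5-fold higher. Without each quadrant in turn, the ratio ran from 2.09 to 3.16 for Mt1, 3.32 to 5.59 for Mt2, 1.95 to 2.11 for Fth1, 0.712 to 0.744 for Ftl1, 2.09 to 2.93 for Tfrc and 2.71 to 4.11 for Hmox1. With beads of at least 200 counts it was 3.01 for Mt1, 5.31 for Mt2 and 1.96 for Fth1. With bins weighted equally it was 2.04, 3.11 and 2.19, and 0.680 for Ftl1. Trimmed-mean scaling gave 1.94 for Fth1. The outer/inner ratio in the young section was 0.687, 0.918 and 0.690 for Mt1 with bins of 3 spacings, 8 spacings and at least 1000 counts, and 0.855 for Mt2 with 5 depth zones. In the old section it was 2.61 and 3.35 for Mt1 and Mt2 with 5 depth zones, 2.41 and 2.78 with at least 250 counts, and for Mt2 2.07 with bins of 3 spacings and 2.11 with at least 1000 counts. In the highest 10% of young bins, the granulosa ratio was 0.331 for Mt1 and 0.163 for Mt2, and the macrophage ratio 1.72 for Fth1. In that of old bins, the luteal ratio of Mt1 was 0.121, the steroidogenic ratios of Mt1 and Mt2 0.151 and 0.124, and the periovulatory ratios of Mt1, Mt2 and Fth1 1.86, 1.76 and 0.325. With bins of 3 spacings the young steroidogenic ratio of Mt2 was 3.20, the old macrophage ratio of Fth1 2.42 and its periovulatory ratio 0.351. With bins of 8 spacings the young granulosa ratio of Mt2 was 0.319 and the old macrophage ratio of Fth1 2.39. Ratios past 1.5-fold that turned were those of Hmox1, on few counts: in young surface epithelium bins 1.03 with bins of 8 spacings and 1.21 in the highest 10%, against 0.600, and in old endothelial bins 0.891 and 0.959 with bins of 3 and 8 spacings, against 2.14. Of the marker ratios of Mt1, Mt2, Fth1 and Ftl1, 10 of 104 had an interval on 1 side of 1 and crossed it under another choice of bins. The largest moves were in old theca bins (Mt2 from 1.22 to 0.672 in the highest 10%, Fth1 from 0.858 to 1.26 with bins of 8 spacings) and old oocyte bins (Mt2 from 1.14 to 0.632 and Fth1 from 0.859 to 1.32, both with bins of 8 spacings). With a minimum of 50 counts, 1 haem gene was higher and 1 Nrf2 target lower. The cause of these moves was not tested.

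The counts limit Tfrc and Hmox1 most, with fewer than 100 each in either section. All intervals cover counting error alone. A bead can take RNA from several cells, so a level in a bin is no level of a cell type. The highest region over the lowest, spatial correlations and Moran's I moved with resolution and thinning depth. No paired analysis was possible because each age has 1 section and the sections share no replicate number.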
